A study of Mus musculus with 9 samples.

Results

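The genes described here encode the nuclear pore complex and the soluble carriers that take proteins and RNA through it. They were taken from the deposited count table as every protein-coding gene whose symbol starts with Nup, Kpna, Kpnb, Ipo, Xpo or Tnpo followed by a digit. This gave 42 genes of 45706 identifiers in the table, of which 21519 were protein-coding, and they divided into 20 nucleoporins (Nup genes) and 22 carriers. Of 43 annotated symbols that match, 1 was not analysed here. The pore proteins Nup58 and Nup42 appear under their older symbols Nupl1 and Nupl2 and are treated with the other pore components.

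The series followed the central nervous system of untreated C57BL6/J mice at 3 ages, E9.5 and E14.5 (days of embryonic development) and P60 (days after birth). Each age had 3 libraries made from whole tissue. At E9.5 the head was cut behind the fourth ventricle and trimmed of tissue outside the neuroectoderm. At E14.5 the brain was freed of meninges, and at P60 the tissue was taken from adults anaesthetised with ketamine and xylazine and perfused with saline, so dissection and anaesthesia cannot be told apart from stage. The labels do not say whether the 3 libraries of a stage came from separate animals, and p-values measure the spread between these libraries, which may be technical.

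Proteins larger than the passive limit of the pore cross the nuclear envelope bound to carriers. Importin alpha proteins (Kpna genes) recognise the classical nuclear localisation signal and dock on importin beta 1 (Kpnb1), which moves through a central channel lined with phenylalanine-glycine repeats, and the small GTPase Ran in its GTP form releases the cargo inside. Exportins work in the opposite direction, and transportins and the other importins bind their cargo without an adaptor. The pore itself is built from an outer ring of Y-shaped complexes, an inner ring, a membrane anchor, a cytoplasmic face and a nuclear basket, and its scaffold proteins are known for very long lives in adult neurons. In mouse embryonic stem cells that turn into neurons, a switch from Kpna2 to Kpna1 is known.

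Promoter sequence was examined because most of these genes moved together, as described further on. RefSeq (GRCm38.p6) gave windows of 300 bases, from 250 before to 50 after a start site, for 33 of the 42 genes, 40 windows in all since some genes have several start sites. The stretch before the start site is printed 5′ to 3′ for the main import receptor, for the importin alpha whose messenger RNA (mRNA) fell furthest and for the nucleoporins among the genes with an NRF1 match. Each stretch lies before the first exon in GENCODE M21 and holds no annotated exon. Capitals mark exact matches on either strand to CCAAT (bound by NF-Y), TTTGAA or TTCGAA (the cell-cycle homology region), TTTCGCGC or TTTGGCGC (E2F), GCATGCGC (NRF1) or CCGGAAGT (ETS factors). Kpnb1 lies on the minus strand, chr11:97187893-97188142, Kpna2 on the minus strand, chr11:106999542-106999775, Nup50 on the plus strand, chr15:84923178-84923410, and Nup107 on the minus strand, chr10:117792706-117792955.
Kpnb1: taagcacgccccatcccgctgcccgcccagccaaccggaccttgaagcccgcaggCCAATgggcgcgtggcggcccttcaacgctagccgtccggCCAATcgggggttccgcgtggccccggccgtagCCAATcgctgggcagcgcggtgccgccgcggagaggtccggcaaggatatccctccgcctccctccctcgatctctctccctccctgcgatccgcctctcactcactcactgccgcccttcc
Kpna2: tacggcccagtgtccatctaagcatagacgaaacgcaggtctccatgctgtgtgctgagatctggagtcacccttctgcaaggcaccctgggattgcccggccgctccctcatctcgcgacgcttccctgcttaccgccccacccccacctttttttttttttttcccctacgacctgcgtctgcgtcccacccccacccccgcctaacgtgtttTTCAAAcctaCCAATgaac
Nup50: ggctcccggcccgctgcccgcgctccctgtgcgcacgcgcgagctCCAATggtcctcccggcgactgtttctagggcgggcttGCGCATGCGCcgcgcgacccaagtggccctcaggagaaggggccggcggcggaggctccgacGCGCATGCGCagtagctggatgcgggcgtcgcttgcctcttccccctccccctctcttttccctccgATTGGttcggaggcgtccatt
Nup107: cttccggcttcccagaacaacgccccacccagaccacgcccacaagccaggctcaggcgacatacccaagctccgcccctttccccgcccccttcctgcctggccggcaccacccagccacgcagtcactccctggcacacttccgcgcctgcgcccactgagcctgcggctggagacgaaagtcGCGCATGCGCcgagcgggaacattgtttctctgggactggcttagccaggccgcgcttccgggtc

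The Kpnb1 stretch held 3 CCAAT matches, with first bases at -195, -155 and -122 from the start site. In Kpna2 a TTTGAA match on the opposite strand at -35 was followed by CCAAT at -25. Nup50 held a CCAAT at each end and, between them, a pair of places where GCATGCGC matched both strands in an overlapping run of 10 bases, and Nup107 held 1 such place. Counting a gene when any of its windows matched, a CCAAT was present in 19 of the 33 genes (57.6%), against 42.0% of the 12946 tested genes with a window and 41.1% of all 27025 genes with one. The cell-cycle homology letters were in 8 (24.2%, against 16.4% of tested genes and 21.7% of all genes with a window). The ETS letters were in 4 (12.1%, against 7.62% and 4.31%). The NRF1 letters were in 3, Nup50, Nup107 and Xpo5 (9.09%, against 5.24% and 3.05%). The E2F letters were in 1, Ipo7 (3.03%, against 1.61% and 0.929%). The 33 genes include Kpna7, which was not tested and held a CCAAT and a TTTGAA match. These matches describe letters in a window, were not tested, and say nothing of what binds there.

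Messenger RNA of the pore and its carriers took a smaller share of the library at each later stage. The 42 genes together held 0.864 to 0.995% of all counts at E9.5, 0.391 to 0.473% at E14.5 and 0.177 to 0.221% at P60. In CPM, which scale counts to a common library total, the nucleoporins summed to 2723 ± 133 (SD, n = 3) at E9.5, 1236 ± 56.9 at E14.5 and 433 ± 5.1 at P60. The carriers summed to 6740 ± 581, 3183 ± 394 and 1510 ± 228 CPM. No library of one stage overlapped with another stage in either sum. From E9.5 to P60 the summed level was 6.29 times lower for nucleoporins and 4.46 times lower for carriers. In bulk tissue, fewer cells of a type and less RNA per cell cannot be told apart.

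**Figure D1:**
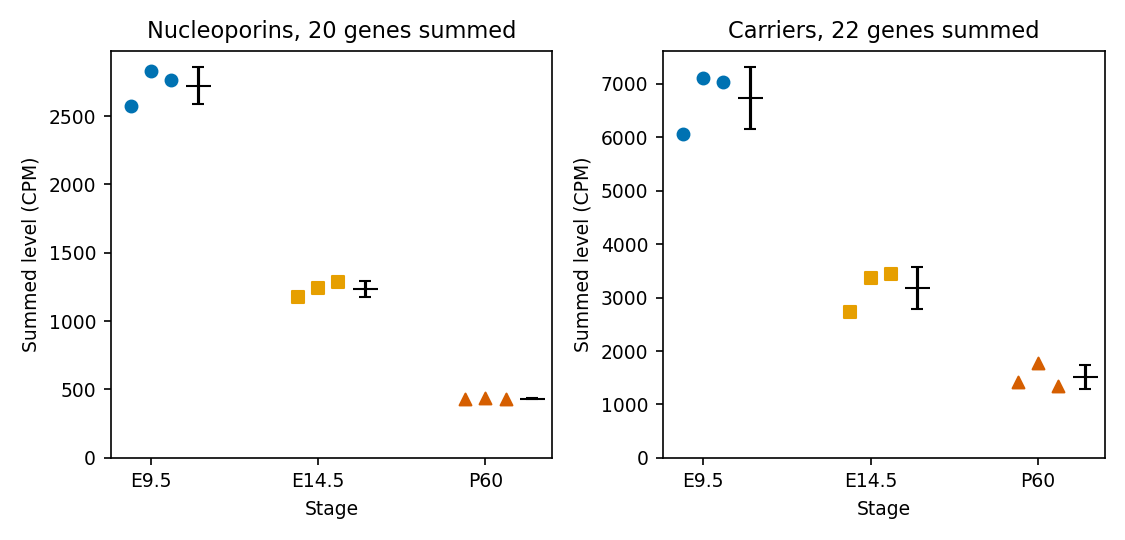
Summed level of the 20 nucleoporins (left) and 22 carriers (right) in CPM on linear axes that start at 0. Each point is 1 library, and the bars beside the points give the mean and SD of the 3 libraries of a stage. Both sums step down from E9.5 to E14.5 to P60 with no overlap between stages.

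Each of the 41 genes that passed the filter on low counts was tested with edgeR's quasi-likelihood test in a fit of all 9 libraries, with Benjamini-Hochberg adjustment over 17971 genes and a threshold of 0.05. Between E9.5 and E14.5, 19 of 20 nucleoporins and 17 of 21 carriers fell, where 30.7% of all genes tested were called lower. Between E14.5 and P60, 19 nucleoporins and 16 carriers fell, against 39.4% of all genes. From E9.5 to P60, 19 nucleoporins and 20 carriers fell, against 40.6% of all genes. The E14.5 libraries serve in both steps, so the steps are not independent.

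In the first step no member rose by edgeR's adjusted p, where 34.0% of all genes were called higher. At an unadjusted p below 0.05 the number that rose was also 0, and DESeq2 gave 0 too. Between E14.5 and P60 only the carrier Ipo11 rose in the edgeR test (background 36.7%). From E9.5 to P60 the number called higher was 0 by edgeR, 0 at an unadjusted p below 0.05 and 0 by DESeq2 (background 42.0%).

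Over all genes tested, rises and falls nearly balanced, with a median log2 change of 0.03, -0.06 and 0.05 in the 3 comparisons. These medians do not measure the size of a typical change. From E9.5 to P60, 6302 of the 17971 genes were called at least 2-fold higher and 5838 at least 2-fold lower. The median of the nucleoporins was -1.27 between E9.5 and E14.5, -1.56 between E14.5 and P60 and -2.92 from E9.5 to P60. For the carriers the medians were -0.96, -0.79 and -1.71. At least 2-fold falls were called for 26, 21 and 34 of the 41 genes, where 18.1%, 29.7% and 32.5% of all genes were. All libraries of the later stage lay below all of the earlier in 35, 35 and 40 of the 41, against 32.2%, 42.1% and 42.8% of all genes. The mean level followed E9.5 above E14.5 above P60 in 36 of 41. That order held for 28.2% of all genes tested. Exceptions were Ipo13 and Tnpo2, highest at E14.5, Ipo11 and Nup35, lowest at E14.5, and Kpna1, highest at P60.

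**Figure D2:**
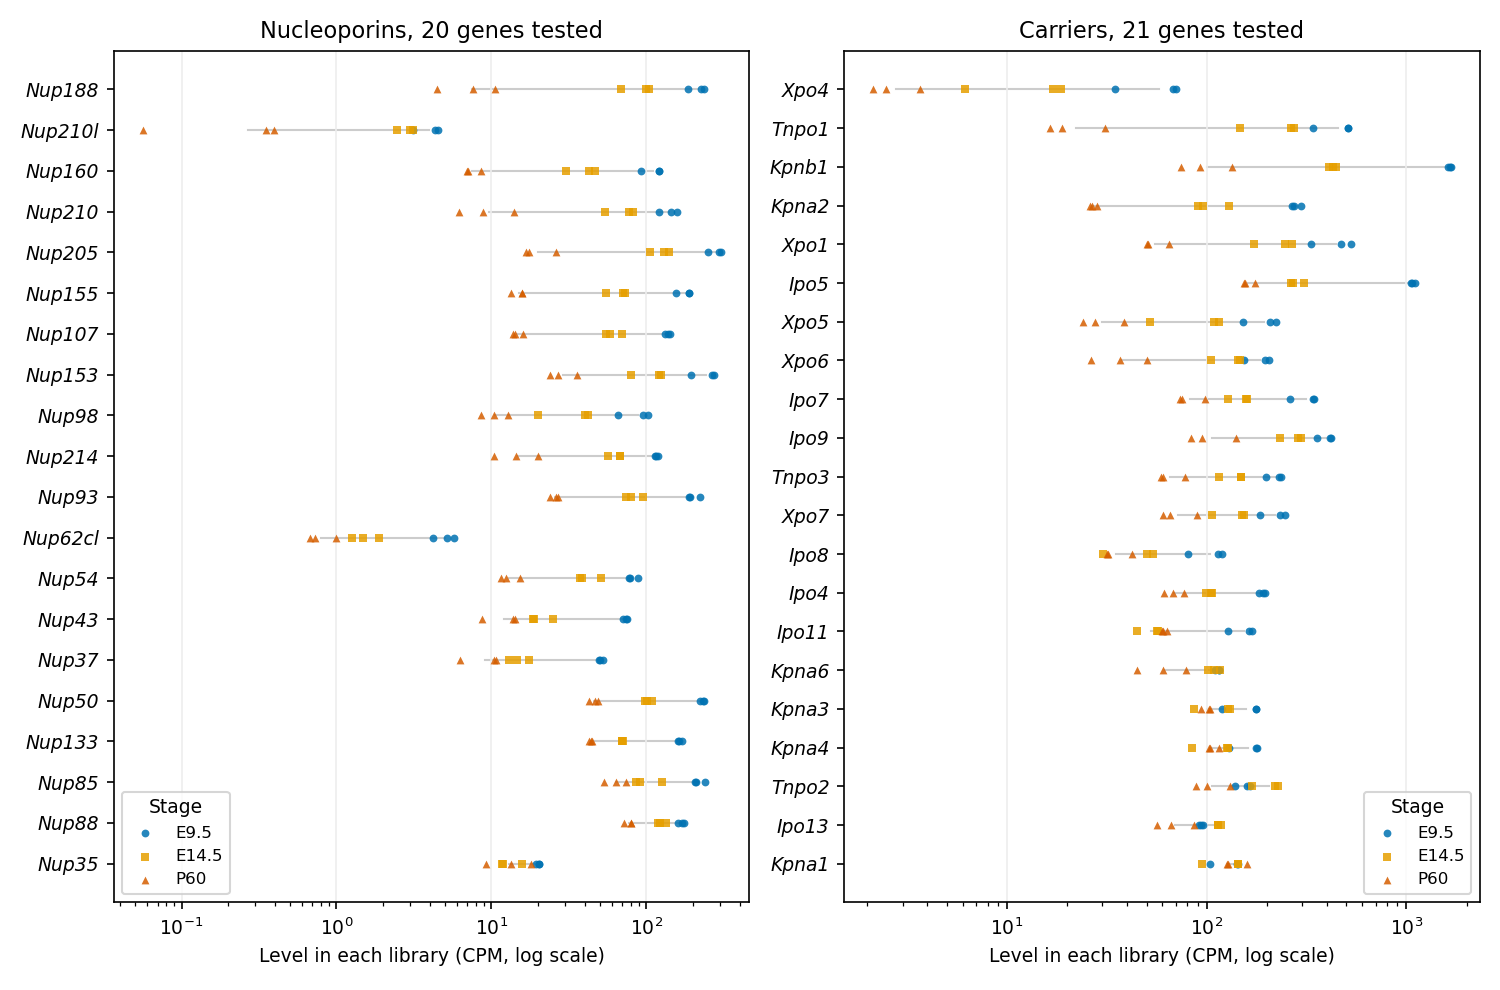
Level of every tested gene in each of the 9 libraries (CPM, log scale), nucleoporins on the left and carriers on the right. Genes are ordered by the fitted log2 change from E9.5 to P60, with the largest fall at the top. Each symbol is 1 library and the grey line joins the lowest to the highest stage mean. By stage means, Nup188 and Xpo4 span the widest ranges, while the libraries of Kpna1 lie between 94.6 and 160 CPM at every stage. Single libraries of the low copy Nup210l run from 0.0561 to 4.51 CPM, a wider span than those of Nup188.

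Several other measures moved with these genes, and their part in the falls was not tested. All 20 genes of a cell-cycle list fell in both steps, where 30.7% and 39.4% of all genes were called lower. Among them were the replication licensing factor Cdc6 (105 ± 3.93, 15.3 ± 1.51 and 0.542 ± 0.109 CPM) and the proliferation marker Mki67 (820 ± 110, 228 ± 28.3 and 0.466 ± 0.368 CPM). The summed level of the 20 genes went from 6788 to 6962 CPM at E9.5 to 1763 to 2029 CPM at E14.5 and 144 to 174 CPM at P60. Summed markers of mature neurons went from 26.8 to 32.6 CPM at E9.5 to 6453 to 8191 CPM at P60, and oligodendrocyte markers reached 12354 to 14557 CPM at P60. Markers of tissue outside the neuroectoderm were counted as well. Those of red blood cells, a list that includes embryonic globins, summed to 4218 to 5646 CPM at E9.5 against 5.09 to 17.3 CPM at P60. Mesenchyme markers summed to 568 to 747 CPM at E9.5, 330 to 710 CPM at E14.5 and 42.8 to 64.1 CPM at P60. Surface ectoderm markers summed to 154 to 240 CPM at E9.5 and 5.28 to 8.73 CPM at E14.5. Muscle markers ranged from 5.84 to 308 CPM between the E9.5 libraries, highest in the first. Neural progenitor markers summed to 1293 to 1561 CPM at E9.5, 1925 to 2641 CPM at E14.5 and 182 to 202 CPM at P60. In the first step 2 of the 6 rose, near the 34.0% of all genes called higher, and 0 fell, where 30.7% of all genes did. In the second all 6 fell (median log2 -2.69), where 39.4% of all genes did. None of the 6 was at 0 in all libraries of a stage.

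Exon length moved with the second step as well. Of the 41 genes, 27 were in the longest of 3 equal classes of tested coding genes (over 5780 bases of exon). In that class the median log2 change between E14.5 and P60 was -0.67 for all coding genes and -1.47 for the 27 members. In the shortest class it was 0.66 for all coding genes and -0.81 for the 3 members there. Between E9.5 and E14.5 the medians of all coding genes were 0 in the shortest and 0.05 in the longest class, against -1.80 and -1.18 for members. Libraries also differed within a stage in long genes, by the median deviation from the stage mean in the longest class minus that in the shortest. It was -0.16 in the first library of E9.5 (0.08 and 0.09 in the others), -0.33 in the first of E14.5 (0.17 in each of the others) and -0.08, 0.33 and -0.25 in the 3 of P60, where the second and the third deviated in opposite directions. The part of length in single fold changes was not tested.

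The inner ring, the scaffold that lines the pore, had the largest relative loss among the nucleoporin groups with more than 1 gene. Its 5 genes summed to 895 ± 53.9 CPM at E9.5, 378 ± 34.6 at E14.5 and 81.7 ± 3.21 at P60, a level 11.0 times lower at P60 than at E9.5. All 5 fell in the first step (30.7% of all genes) and 4 in the second (39.4% of all genes). Nup188 (chr2:30286397-30344266, plus strand), one of the large solenoid proteins of the ring, was counted at 186, 235 and 225 CPM at E9.5, at 68.6, 99.5 and 104 CPM at E14.5 and at 7.575, 10.5 and 4.44 CPM at P60. The stages were far apart, with a 27.9-fold fall from E9.5 to P60 (log2 -4.80 ± 0.30 SE, adjusted p = 7.3e-08). Nup188 shares exon sequence on the same strand with the predicted gene Gm28038, so counts could be divided between them.

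Nup205, the paralogue of Nup188, was at 250.6, 301 and 294 CPM at E9.5, 105, 130 and 141 CPM at E14.5 and 17.5, 25.99 and 16.6 CPM at P60. It fell 13.6-fold over the whole interval, with no overlap between stages. Nup155 fell from a mean of 178 CPM to 66.1 and then 15.0 CPM, and Nup93, which ties the ring to the central channel, from 200 to 82.9 and 25.7 CPM. Nup35, the membrane-binding member of the ring, behaved differently. It was at 20.2, 20.2 and 19.3 CPM at E9.5 and at 15.7, 11.8 and 11.6 CPM at E14.5. At P60 it was at 13.4, 9.25 and 18.0 CPM.

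Nup35 fell between E9.5 and E14.5 (log2 -0.70 ± 0.23, adjusted p = 0.022) and the P60 libraries spread beyond the E14.5 range on both sides. The call was lost without the first or second E9.5 library (adjusted p = 0.055 and 0.054) and without the second or the third E14.5 library (adjusted p = 0.078 and 0.081). Its difference between E9.5 and P60 was -0.51 ± 0.23 (adjusted p = 0.061), and this value moved with the P60 libraries kept. It was -0.29 without the second P60 library (adjusted p = 0.19) and -0.76 without the third (adjusted p = 0.0073), and it was also called without the first E14.5 library (adjusted p = 0.043), with library totals (adjusted p = 0.039) and with the replicate block (adjusted p = 0.037). Nup35 overlaps exons of Dusp19 on the same strand. The membrane anchor Nup210 (chr6:91013068-91116829, minus strand) fell in both steps. It stood at 120, 157 and 144 CPM at E9.5 and at 53.7, 76.9 and 81.5 CPM at E14.5. At P60 it was at 8.76, 14.1 and 6.20 CPM, a 14.0-fold fall from E9.5. Its 3 stages did not overlap. By edgeR, the first-step fall was log2 -1.08 ± 0.26 (adjusted p = 0.0037), and the larger drop was in the second step (log2 -2.73 ± 0.28, adjusted p = 5.9e-06).

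The Y complex of the outer ring fell less. Its 6 genes in this set summed to 754 ± 7.09, 308 ± 27.3 and 151 ± 13.0 CPM, 4.997 times lower at P60 than at E9.5. All 6 fell in both steps, where 30.7% and 39.4% of all genes did. Nup43 (chr10:7667503-7678881, plus strand) and Nup37, small propeller proteins at the edge of the complex, had the largest first-step falls of the nucleoporins. Nup43 was at 75.1, 71.0 and 73.7 CPM at E9.5, at 24.8, 18.6 and 18.8 CPM at E14.5 and at 13.7, 8.63 and 14.1 CPM at P60. Nup37 was at 49.99, 52.1 and 49.3 CPM, then 17.5, 12.9 and 14.6 CPM, then 10.7, 6.28 and 10.4 CPM. For both genes the drop was steep before E14.5 (log2 -1.90 ± 0.21 and -1.84 ± 0.21, adjusted p = 1.4e-05 and 2.2e-05) and small after it (-0.64 ± 0.21 and -0.58 ± 0.21).

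The second-step calls of Nup43, Nup37 and a further Y subunit, Nup85 (log2 -0.54 ± 0.19, adjusted p = 0.027), rest on the settings used. Without the second P60 library, Nup37 stood at -0.37 (adjusted p = 0.058) and Nup85 at -0.42 (adjusted p = 0.081), and without the first E14.5 library at -0.43 (adjusted p = 0.084) and -0.32 (adjusted p = 0.094). Nup85 was also not called without the first P60 library (adjusted p = 0.059). With upper quartile scaling, the values were -0.47 for Nup43 (adjusted p = 0.069), -0.41 for Nup37 and -0.37 for Nup85. Within the same complex the scaffold subunits Nup160 and Nup107 went on falling, from 111 to 39.9 to 7.52 CPM and from 137 to 60.8 to 14.7 CPM. Nup133, a further subunit of the complex, went from 164 to 70.1 to 43.7 CPM.

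The central channel genes Nup54 and Nup98 carry phenylalanine-glycine repeats and summed to 169 ± 13.9, 76.5 ± 4.46 and 23.6 ± 1.66 CPM. Both fell in each step (30.7% and 39.4% of all genes). In the nuclear basket, Nup153 and Nup50 summed to 473 ± 51.0, 210 ± 28.9 and 74.6 ± 8.43 CPM, and Nup50, which helps release cargo from importin alpha, was at 229 ± 7.15, 102 ± 5.45 and 45.8 ± 3.00 CPM. The cytoplasmic face, made of Nup214 and Nup88 here, had the smallest ratio among nucleoporin groups, 3.09 from E9.5 to P60. Nup88 was the gene that fell less.

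Nup88 was counted at 174, 168 and 160 CPM at E9.5 and at 135, 122 and 119 CPM at E14.5. At P60 it was at 79.5, 71.8 and 79.1 CPM. Every library of a later stage was lower, and the fall over the whole interval was 2.11-fold (adjusted p = 1.4e-05). Its partner Nup214 fell 7.56-fold, from 116 to 64.0 to 14.9 CPM. Nup88 overlaps exons of Rabep1 on the opposite strand, and the strand setting of the counts is not given in the sources used here. A pair of low copies related to pore genes was also present, Nup210l and Nup62cl. Nup210l was at means of 3.98, 2.86 and 0.268 CPM. Nup62cl was at 5.13, 5.77 and 4.22 CPM in the E9.5 libraries, 1.26, 1.48 and 1.89 CPM at E14.5 and 0.671, 0.990 and 0.730 CPM at P60. Nup210l fell in the second step (log2 -3.27 ± 0.43, adjusted p = 4.3e-05). Nup62cl fell in both (log2 -1.80 ± 0.24 and -0.81 ± 0.25), and the second call was lost without the third E14.5 library (adjusted p = 0.058) or without the first P60 library (adjusted p = 0.051).

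Importin beta 1 was the most abundant of all 42 genes per length of exon sequence at E9.5, and it lost that place. Kpnb1 (chr11:97159714-97187881, minus strand) was counted at 1606, 1668 and 1657 CPM at E9.5, at 408, 428 and 445 CPM at E14.5 and at 93.0, 134 and 74.5 CPM at P60. The stages were widely separated, and the steps were of like size (log2 -2.04 ± 0.20 and -1.95 ± 0.20, adjusted p = 5.9e-06 for each), giving a 15.9-fold fall. In CPM per kilobase of exon, Kpnb1 was first at E9.5 (249.4 ± 5.05) and E14.5 (64.8 ± 2.85) and the seventh at P60 (15.2 ± 4.59). At P60 the highest levels per kilobase were those of Ipo5 (26.9 ± 1.83), Kpna3 (23.3 ± 1.35) and Nup85 (18.8 ± 3.12), where libraries of Kpna3 and Nup85 overlapped with each other and those of Ipo5 with neither.

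The importin alpha adaptors were the group whose summed level fell least, summing to 841 ± 67.4 CPM at E9.5, 568 ± 62.0 at E14.5 and 433 ± 33.3 at P60. Of 5 tested genes, 3 fell in the first step (30.7% of all genes) and 2 in the second (39.4% of all genes), the latter close to the share of all genes. Kpna2 (chr11:106988629-106999541, minus strand), the adaptor typical of dividing cells, carried most of the loss. It was counted at 295, 273 and 268 CPM at E9.5, at 130, 89.9 and 96.0 CPM at E14.5 and at 26.7, 26.1 and 28.1 CPM at P60. Its 10.0-fold fall left no overlap between stages (log2 -3.32 ± 0.18, adjusted p = 2.2e-08). A processed copy, Kpna2-ps, was listed at 0 in every library.

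Kpna1, the adaptor tied to neuronal differentiation, was the single tested gene not called across the 3 stages, where 91.5% of all genes were. It was at 104, 143 and 142 CPM at E9.5, at 94.6, 143 and 143 CPM at E14.5 and at 127, 160 and 127 CPM at P60. The stages overlapped, and its log2 change from E9.5 to P60 was 0.14 ± 0.19 (adjusted p = 0.51). In both embryonic stages the first library was the low one, as it was for Kpna3 and Kpna4.

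Kpna3 was at 120, 176 and 177 CPM at E9.5, 86.3, 128 and 131 CPM at E14.5 and 93.5, 104 and 103 CPM at P60. Kpna4, its close relative, was at 129, 179 and 176 CPM, then 84.6, 127 and 126 CPM, then 103, 103 and 115 CPM. Both fell in the first step (log2 -0.55 ± 0.19 and -0.62 ± 0.18, adjusted p = 0.024 and 0.011), and after E14.5 their changes were -0.06 ± 0.19 and 0.07 ± 0.18. The first-step call of Kpna3 was lost without the second or the third E9.5 library (adjusted p = 0.094 and 0.092), without the first E14.5 library (adjusted p = 0.072) and with library totals (adjusted p = 0.066). The reverse held for Kpna6, at 115, 115 and 110 CPM, then 101, 116 and 108 CPM, then 60.6, 79.2 and 44.6 CPM. It changed by -0.16 ± 0.18 in the first step (adjusted p = 0.47) and fell in the second (-0.68 ± 0.18, adjusted p = 0.006).

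Kpna7, an adaptor known from oocytes and early embryos, was not tested. It had 2 reads in the E9.5 libraries together, 0 at E14.5 and 3 at P60. A count of 0 at E14.5 allows up to 0.0305 CPM (3 counts of the stage total, counting error only), and the other stages were at or under that floor as well. It overlaps Arpc1a on the opposite strand.

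Divided by exon length, the makeup of the importin alpha pool differed between stages. Kpna2 was 52.9 ± 5.15% of the summed level per length at E9.5, 34.5 ± 8.89% at E14.5 and 13.5 ± 1.24% at P60. Kpna1 went from 8.27 ± 1.07% to 13.9 ± 2.45% and 23.1 ± 1.62%, and Kpna3 from 19.8 ± 3.35% to 24.9 ± 4.27% and 33.3 ± 1.59%. Kpna4 went from 9.79 ± 1.31% to 11.7 ± 2.00% and 17.1 ± 1.81%. These shares describe the pool and were not tested, and a share can grow while the level does not, as for Kpna3.

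**Figure D3:**
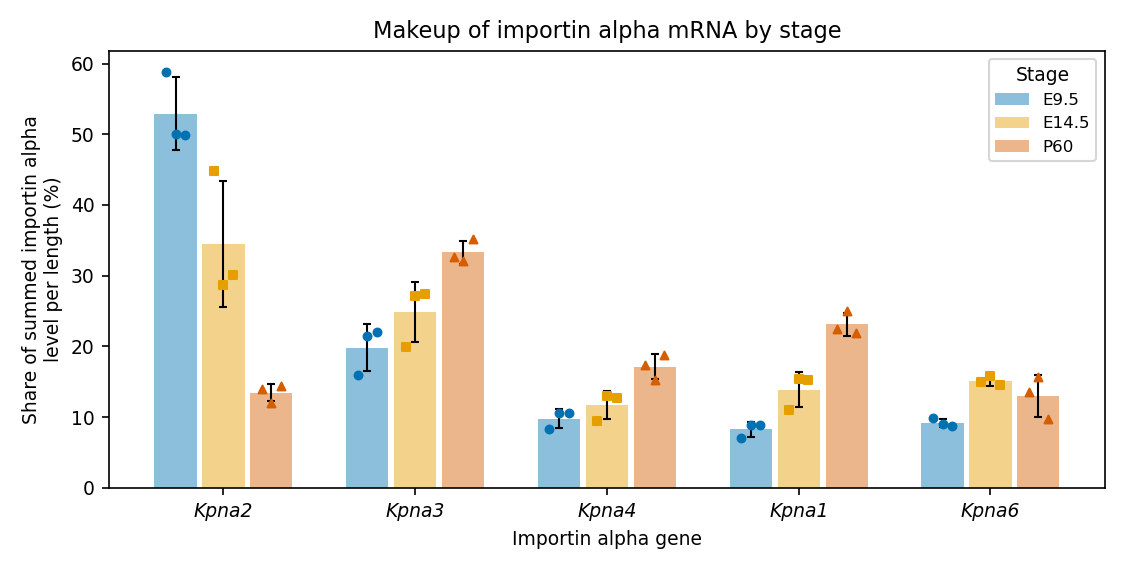
Share of each importin alpha gene in the summed importin alpha level per exon length (%, axis from 0) by stage. Bars are means, error bars SD over 3 libraries and points single libraries. Kpna2 goes from 52.9% at E9.5 to 13.5% at P60, and Kpna3 is the largest share at P60 with 33.3%.

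The other importins, which bind cargo directly, summed to 2324 ± 139, 1015 ± 53.0 and 584 ± 82.0 CPM. Of these 7 genes, 6 fell in the first step (30.7% of all genes). In the second, 5 fell and 1 rose (39.4% and 36.7% of all genes). Ipo5 (chr14:120911224-120947999, plus strand), an importer of histones and ribosomal proteins, led them at 1067, 1098 and 1051 CPM at E9.5. It was at 306, 263 and 269 CPM at E14.5 and 155, 174 and 154 CPM at P60. The first step held most of its fall (log2 -2.03 ± 0.14, adjusted p = 4.7e-07, against -0.66 ± 0.14 in the second), with no overlap between stages. Ipo7 and its paralogue Ipo8 are described as a pair further on, and Ipo9 went from 397 to 272 to 106 CPM. Ipo4 went from 189 to 103 to 68.6 CPM, and it shares exon sequence on the same strand with the predicted gene Gm49378.

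Ipo11 (chr13:106794439-106936958, minus strand) was counted at 128, 162 and 169 CPM at E9.5 and at 44.8, 57.1 and 56.4 CPM at E14.5. At P60 it was at 59.4, 60.4 and 63.6 CPM. It fell steeply in the first step (log2 -1.63 ± 0.15, adjusted p = 3.4e-06). The P60 libraries were all slightly above the E14.5 ones, and the rise was small (0.35 ± 0.14, adjusted p = 0.045). That call was lost without the first E14.5 library (0.26, adjusted p = 0.12), without the third P60 library (0.31, adjusted p = 0.12) and in 6 of the other 7 fits that left out 1 library, the exception being the second of P60. Library totals also ended it (0.21, adjusted p = 0.22), and Ipo11 overlaps Gm28989 on the opposite strand. Ipo13, which carries cargo both ways, had the smallest range of stage means among these 7 genes at of 93.7, 115 and 69.6 CPM, with no call in the first step (0.21 ± 0.16, adjusted p = 0.26) and a fall in the second (-0.59 ± 0.16, adjusted p = 0.0051).

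Transportin 1 and transportin 2 parted ways. Tnpo1 (chr13:98839019-98926384, minus strand), the main importer of hnRNP proteins, was counted at 340, 511 and 508 CPM at E9.5, at 146, 265 and 272 CPM at E14.5 and at 19.0, 30.8 and 16.4 CPM at P60. The fall between E14.5 and P60 was the largest of any carrier (log2 -3.22 ± 0.31, adjusted p = 3.6e-06). Its paralogue Tnpo2 was at 139, 166 and 159 CPM, then 169, 226 and 219 CPM, then 101, 131 and 88.0 CPM. Tnpo2 was not called in the first step (0.32 ± 0.17, adjusted p = 0.13), although every E14.5 library was above the E9.5 ones, and fell in the second (-0.80 ± 0.17, adjusted p = 0.0014). Tnpo3, which imports SR splicing factors, went from 222 to 137 to 65.8 CPM and overlaps Irf5 on the opposite strand.

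All 5 exportins fell in both steps (30.7% and 39.4% of all genes), summing to 1101 ± 211, 604 ± 141 and 198 ± 43.7 CPM. Xpo1 (chr11:23256041-23298249, plus strand), the general exporter of proteins with leucine-rich signals, was at 333, 472 and 525 CPM at E9.5, at 172, 248 and 266 CPM at E14.5 and at 50.9, 65.1 and 50.2 CPM at P60. It fell 7.74-fold, with no overlap between stages. Xpo4 was rare and fell about as far as Tnpo1, from 34.7, 70.1 and 67.5 CPM to 6.18, 17.1 and 18.6 CPM and to 2.49, 3.68 and 2.13 CPM. This was a 20.0-fold fall (log2 -4.32 ± 0.44, adjusted p = 3.3e-06). In both embryonic stages the first library was well below its neighbours, and Xpo4 shares exon sequence on the same strand with Gm49361.

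The exporter of microRNA precursors, Xpo5, went from 194 ± 37.7 to 91.7 ± 34.8 and 29.96 ± 7.57 CPM. Xpo6, which exports actin with profilin, went from 185 to 132 to 37.8 CPM, and Xpo7 from 221 to 137 to 72.1 CPM. The first-step call of Xpo6 (log2 -0.58 ± 0.22, adjusted p = 0.04) was lost in 6 of the 9 fits that left out 1 library, all but those without the first of E9.5 and the second or the third of P60, and with both first embryonic libraries left out it stood at -0.54 (adjusted p = 0.1). Xpo7 overlaps exons of Npm2 on the same strand.

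Ratios between a pair of genes within a library hardly depend on how libraries are scaled, so 6 pairs were compared as the log2 ratio of CPM + 1. An exact permutation test recomputed the F statistic for each of the 1680 ways to place 9 libraries in 3 stages of 3, with adjustment over the 6 pairs. The test exchanges all 9 libraries freely and takes no account of the replicate numbers. The pairs were chosen with earlier results on these libraries known. Tnpo1 over Tnpo2 went from 1.53 ± 0.21 (SD, n = 3) at E9.5 to 0.11 ± 0.28 at E14.5 and -2.25 ± 0.17 at P60 (exact permutation test, p = 0.0036, the smallest it can give, adjusted p = 0.011). In single libraries the ratio was 1.29 to 1.67, -0.21 to 0.31 and -2.36 to -2.05. Every library at E9.5 had more Tnpo1 than Tnpo2 counts, and every library at P60 the reverse.

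Kpna2 over Kpna1 showed a reversal of like size, from 1.11 ± 0.33 to -0.26 ± 0.62 and -2.30 ± 0.23 (exact permutation test, adjusted p = 0.011). The first E14.5 library was at 0.45 and the other two at -0.66 and -0.57. This ratio does not allow for exon length (2873 bases for Kpna2, 8486 for Kpna1). Per kilobase, Kpna2 was still above Kpna1 at E14.5 (36.6 ± 7.43 against 14.9 ± 3.28 CPM) and below it at P60 (9.39 ± 0.37 against 16.2 ± 2.23 CPM). Nup188 over Nup205 went from -0.39 ± 0.04 and -0.48 ± 0.12 to -1.35 ± 0.31 at P60 (exact permutation test over the 3 stages, adjusted p = 0.021). Its size depends on the pseudocount, as Nup188 is low at P60, and the difference between P60 and E9.5 was -0.96 with 1 CPM added and -0.63 with 5 (adjusted p = 0.021 in both). The importin Ipo7 was at 261.5, 346 and 339 CPM at E9.5, 128, 160 and 156 CPM at E14.5 and 74.9, 98.5 and 73.9 CPM at P60. Ipo8 was at 80.3, 119 and 113 CPM, then 30.3, 50.2 and 53.6, then 31.9, 42.3 and 31.6. Both importins fell in the first step. In the second Ipo7 fell (log2 -0.70 ± 0.17, adjusted p = 0.0026) and Ipo8 was at -0.20 ± 0.22 (adjusted p = 0.43). Their ratio was 1.60 ± 0.08, 1.74 ± 0.27 and 1.20 ± 0.01 (exact permutation test, adjusted p = 0.03).

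Xpo1 over Kpnb1, which sets the main exporter against the main importer, was -1.91 ± 0.32 at E9.5, -0.92 ± 0.28 at E14.5 and -0.81 ± 0.24 at P60 (exact permutation test, adjusted p = 0.03). Without the first E9.5 library the adjusted p of this exact test was 0.056. Kpna3 over Kpna4 stayed between -0.15 and 0.06 in all 9 libraries, with stage means of -0.04 ± 0.06, 0.03 ± 0.02 and -0.09 ± 0.10 (exact permutation test, adjusted p = 0.14). A p above the threshold does not show that this ratio was constant, and without the second P60 library its adjusted p was 0.039 for a difference of -0.11 between P60 and E9.5.

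**Figure D4:**
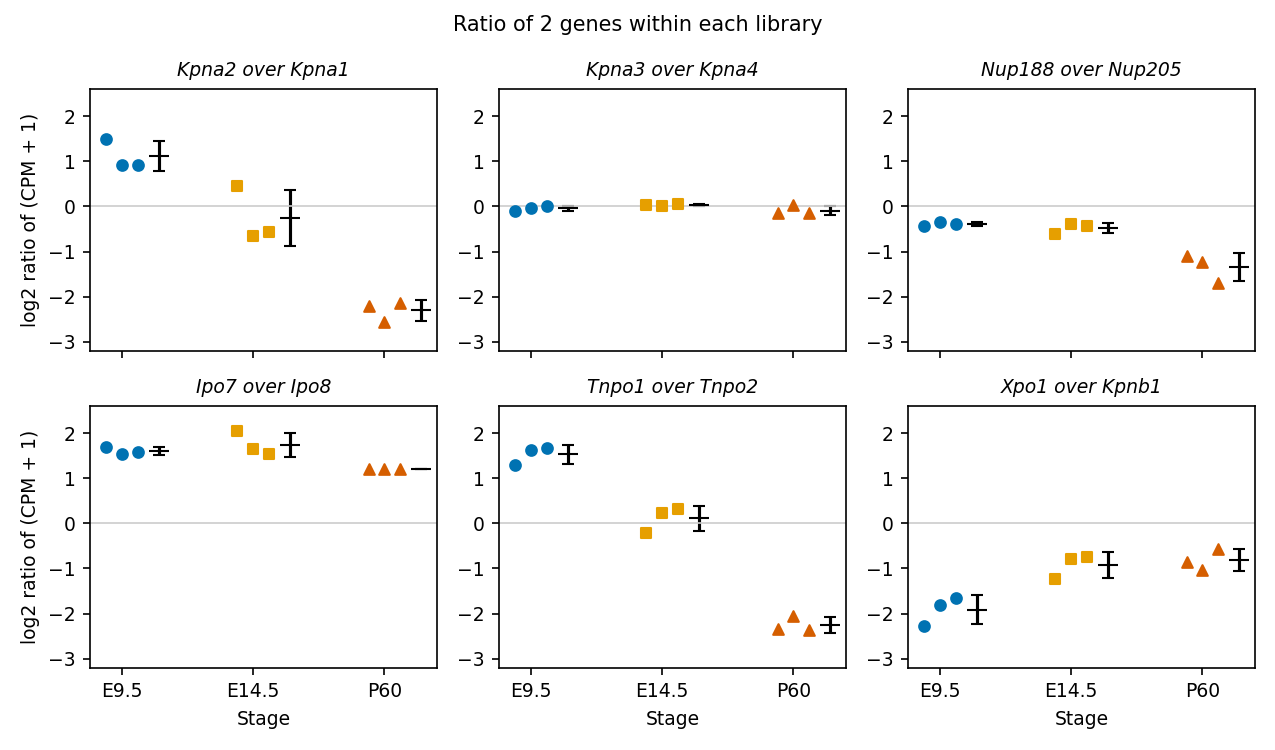
Log2 ratio of CPM + 1 of 2 genes within each library, 1 panel per pair, by stage. Points are libraries and the bars beside them mean and SD of 3 libraries. Tnpo1 over Tnpo2 and Kpna2 over Kpna1 cross 0 between E9.5 and P60, while Kpna3 over Kpna4 stays between -0.15 and 0.06.

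Genes that work with the pore and its carriers were counted by lists chosen with earlier results on these libraries known. Their counts stand beside 30.7% of all genes called lower and 34.0% called higher in the first step, and 39.4% and 36.7% in the second. Of 12 other nuclear pore components, 11 fell in the first step, and 7 fell and 1 rose in the second. Tpr, the filament protein of the basket, went from 461 ± 9.69 to 233 ± 13.5 and 58.4 ± 12.8 CPM, and Pom121, a membrane anchor, from 196 ± 11.5 to 115 ± 8.10 and 16.2 ± 7.20 CPM. Aaas and Seh1l fell in the first step (log2 -1.79 ± 0.13 and -1.56 ± 0.14). In the second Aaas fell again (-0.89 ± 0.13, adjusted p = 7.9e-05), while Seh1l was at -0.03 ± 0.13 (adjusted p = 0.82). Sec13, which also works in vesicle coats, rose in the second step (0.48 ± 0.19, adjusted p = 0.039). The stages overlapped for Sec13, at 121, 112 and 114 CPM at E14.5 and 164, 102 and 175 CPM at P60, with the second P60 library below all of E14.5.

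Of 11 genes of the Ran cycle and further carriers, 9 fell and 1 rose in the first step and 5 fell and 1 rose in the second, where the share that fell (5 of 11) was not far from the 39.4% of all genes. Rcc1, the exchange factor that loads Ran with GTP on chromatin, went from 272 ± 14.6 to 59.3 ± 8.19 and 12.5 ± 0.865 CPM and fell in both (log2 -2.28 ± 0.15 and -2.11 ± 0.15). Ranbp1, which helps Ran give up its GTP, fell early (-1.80 ± 0.22), and the carrier Ranbp17 fell in both (-0.95 ± 0.17 and -0.61 ± 0.17). Ranbp6, a relative of Ipo5, rose early (0.58 ± 0.13, adjusted p = 0.0022), and Snupn, the adaptor for splicing ribonucleoproteins, rose late (0.52 ± 0.21, adjusted p = 0.043). Ran and Cse1l are given for their roles and were picked after their values were seen. Ran was at 835 ± 56.1, 331 ± 72.1 and 337 ± 77.7 CPM and fell in the first step (adjusted p = 0.0002) with 0.16 ± 0.22 in the second (adjusted p = 0.52). Cse1l, which returns importin alpha to the cytoplasm, went from 383 ± 50.1 to 146 ± 11.4 and 104 ± 3.40 CPM.

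Among 16 mRNA export genes, 10 fell and 1 rose in the first step (30.7% and 34.0% of all genes). In the second, 11 fell and 2 rose (39.4% and 36.7% of all genes). Nxt2, a partner of the export receptor, rose in both (log2 1.17 ± 0.21 and 2.57 ± 0.21), whereas its paralogue Nxt1 fell in the first (-1.44 ± 0.29, adjusted p = 0.0011). Of the THO complex, which couples transcription to export, Thoc3 fell early (-1.30 ± 0.14) and Thoc2 late (-2.14 ± 0.21, adjusted p = 4.3e-06). The helicase Ddx39b went from 743 ± 30.5 to 527 ± 69.3 and 152 ± 5.27 CPM.

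Of 15 nuclear lamina and envelope genes, 7 fell and 5 rose in the first step (30.7% and 34.0% of all genes), and 7 fell and 4 rose in the second (39.4% and 36.7%). Lmnb1, a B-type lamin, went from 658 ± 47.3 to 445 ± 65.3 and 6.13 ± 1.42 CPM, and Lbr, the lamin B receptor, from 136 ± 5.24 to 39.5 ± 2.43 and 10.4 ± 0.569 CPM. Tmpo, a lamina-associated protein, fell in both steps (log2 -1.05 ± 0.15 and -2.57 ± 0.16). Syne2, a nesprin, fell late (-2.99 ± 0.29). Syne1, the related nesprin that links the nucleus to the cytoskeleton, rose in both steps (log2 1.88 ± 0.17 and 3.20 ± 0.18), from 4.86 to 19.2 and 160 CPM.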

How the data were processed

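Whole-tissue libraries were made with the SMARTer Ultra Low Input v4 kit, which amplifies poly(A) cDNA by PCR, per the labels' protocols. Trimmomatic 0.36 trimmed the reads and STAR 2.5.2b placed them on mm10, per the submitters' processing notes. The deposited table holds raw read counts per gene. How reads were counted, with which annotation and strand setting, is not given in the sources used here. Reads of genes that overlap may be shared. Library totals were 30481975 to 35619093 counts. Depth limits Kpna7 and the low copies, and the spread between libraries (a biological coefficient of variation of 19.9%) limits the rest.

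Symbols, coordinates and exon lengths (union of exons) came from GENCODE M21 (GRCm38), which matched 45143 of 45706 identifiers. CPM is by library total. Fold changes ± SE are fitted with TMM scaling in edgeR 4.0.16 (R 4.3.3), with filterByExpr by stage and a robust quasi-likelihood fit. The SE is the absolute log2 change over the square root of F. All tests are two-sided. The scripts were tested on simulated data. Adjusted p-values of the main fit cover all 17971 genes. Each alternative fit was adjusted over the genes it tested, 18333 to 18445 with 1 library left out.

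The members, lists and pairs were chosen with earlier results of these data known. Per-library values were given for all importin alpha genes, pair genes, up to 3 rises and 3 falls per class and step with at least 5 CPM, and the 2 genes per class with the smallest range. From each list and step up to 2 genes of the commoner direction and 1 of the other were named. Alternatives were 3 other scalings, DESeq2 1.42.0, other filters, fits of 2 stages, the replicate number as a block, and each library left out. After seeing the data, a fit without the first library of E9.5 and of E14.5 was added. For the block, numbers were taken to pair libraries across all 3 stages, P60 included. Same-numbered libraries of E9.5 and E14.5 had correlations of 0.14 to 0.37 over genes. Libraries with different numbers had -0.29 to 0.20. Only the libraries numbered 1 stood apart (0.37). Among those numbered 2 and 3, same numbers gave 0.14 and 0.21 and different numbers 0.18 and 0.20. These correlations therefore do not show that libraries were paired by number, and the labels give nothing beyond the number. Same-numbered libraries of P60 did not deviate together with the earlier stages (-0.22 to 0.34 with E14.5, -0.10 to 0.11 with E9.5), although the block paired them too. The block left the calls of members in both steps as they were.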

Additional observations from a re-analysis of the deposited data

How the results depend on the processing

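No member changed sign among its called values under any of the alternatives run. Over them, 18 to 20 nucleoporins fell in the first step, 16 to 19 in the second and 19 to 20 from E9.5 to P60, and carriers that fell numbered 15 to 17, 16 to 17 and 16 to 20. Calls lost under at least 1 alternative were those of Ipo9, Kpna3, Nup35 and Xpo6 in the first step, Ipo11, Nup37, Nup43, Nup62cl and Nup85 in the second, and Ipo13, Kpna3, Kpna4 and Tnpo2 from E9.5 to P60. The carriers that rose between E14.5 and P60 numbered 0 with library totals, 0 with no filter and 0 without both first embryonic libraries, and 0 to 1 with 1 library left out. With the replicate block, Nup35 also fell from E9.5 to P60 (-0.54, adjusted p = 0.037), and no call in a single step changed. The pair Kpna3 over Kpna4 differed by -0.105 between P60 and E9.5 without the second P60 library (range over left-out libraries -0.105 to -0.017), and Xpo1 over Kpnb1 by 0.923 without the first E9.5 library (0.923 to 1.23). The causes were not tested. Library totals put the median of all genes at -0.20 between E14.5 and P60, against -0.06 with TMM, and upper quartile scaling put it at 0.20 from E9.5 to P60, against 0.05.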
